A study of Mus musculus with 36 samples.

Results

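Common lymphoid progenitors (CLP) were set against lymphoid-primed LSK cells, both sorted from C57BL6 mice. The comparison takes the 4 CLP arrays and the 3 LSK arrays that were normalized together with them, 7 of the 36 arrays of the series, and every probe set that names exactly 1 gene, 34945 of 45101 probe sets for 18193 genes. The arrays were chosen by their titles alone. CLP replicates 1 to 3 carry those numbers in their titles, and CLP replicate 4 is the array titled without a number. The LSK arrays are replicates 4 to 6 of the population gated as LSKFlt3hi IL7R+, that is, high for the cytokine receptor Flt3 and positive for the interleukin 7 receptor. The labels call CLP a putative thymus seeding progenitor and LSK thymic seeding progenitors. All 7 arrays are labelled with an age of 1 week and with both sexes; arrays of the series titled adult carry the same age, so this label may not hold. The labels of these 7 arrays give neither the tissue nor the gate used for CLP, and they do not say whether cells of several mice were pooled. Total RNA was extracted with Trizol, amplified and hybridised to one-colour mouse arrays as biotin-labelled cDNA. The design text speaks of biological replicates. The labels do not tie an array to an animal, so the p-values rest on the spread between arrays. That spread was pooled over all 21 arrays normalized together, which include other populations.

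Progenitors on the way to the lymphoid lineages lose the options of stem cells step by step while they switch on the recombinase and the interleukin 7 receptor. The CLP is the stage of the bone marrow from which B cells arise, and like the lymphoid-primed LSK cell it has been discussed as a cell that seeds the thymus. Such progenitors divide, and a dividing cell makes the transcripts of DNA replication in S phase and those of the mitotic spindle, the kinetochore and cytokinesis in G2 and M phase.

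The values were log2 expression levels. The array medians ran from 5.89 to 5.91 in CLP and from 5.84 to 5.88 in LSK, and the interquartile range from 2.79 to 3.0 in CLP and from 2.97 to 3.20 in LSK. In the root mean square of log2 differences over all genes the CLP arrays lay 0.445 from one another on average and the LSK arrays 0.333 from one another, and a CLP array lay 0.429 from an LSK array. Each of the 4 CLP arrays was nearest to an LSK array. Other populations of the same normalization set are named for scale only: haematopoietic stem cells (HSC), early thymic progenitors (ETP), adult ETP, DN3 thymocytes and pro-B cells.

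The receptor genes named in the LSK gate, Il7r and Flt3, were high in both populations. Il7r stood at 11.08, 10.98, 10.54 and 10.32 on CLP replicates 1 to 4, against 10.95, 10.95 and 11.03 on LSK replicates 4 to 6, where the HSC arrays averaged 3.62. Flt3 stood at 11.22, 11.23, 11.28 and 10.54 in CLP, against 11.22, 11.07 and 11.07 in LSK. The groups overlapped for both receptors, and CLP replicate 4 was the lowest array for each. Kit, the receptor for stem cell factor, averaged 8.70 ± 0.37 in CLP (SD, n = 4) and 8.69 ± 0.06 in LSK (SD, n = 3), with a 95% interval of the difference from -0.75 to 0.76. Its second probe set was at -0.27 (SE 0.23, limma adjusted p = 0.845), so the 2 probe sets differ in sign. The intervals of the differences of Il7r (-0.72 to 0.23) and Flt3 (-0.58 to 0.48) also held 0. The stem cell antigen Ly6a, which an LSK gate uses, is not analysed here.

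CLP had lower levels of many genes that carry a cell through mitosis. Of 18193 genes, 53 were lower in CLP and 1 was higher by limma at an adjusted p under 0.05 with a log2 difference of 1 or more in size (2-fold). These are 0.291% and 0.00550% of the genes tested. A gene that met both conditions is called here. Of the 53 genes called lower, 22 belong to a list of 48 mitosis and spindle genes and 1 to a list of B lineage genes. The other 30 belong to none of the 21 lists used. The lists and their members were chosen with earlier results of these data known, so counts by list are a description and no independent test. The 53 genes have 117 probe sets, of which 107 had a negative difference and 76 were called lower. Over all 34945 probe sets, 97 (0.278%) were called lower and 2 (0.00572%) higher. The median difference over all genes was 0.03.

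**Figure D1:**
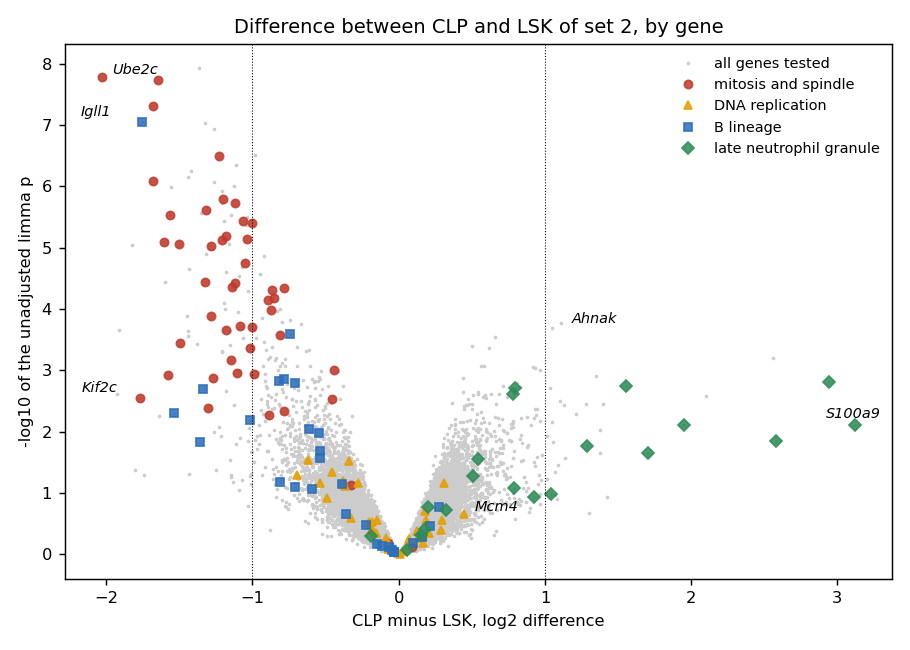
Each point is a gene: the x axis gives the log2 difference, CLP minus LSK, and the y axis the negative log10 of the unadjusted limma p; dotted lines mark 2-fold. Mitosis and spindle genes (red) lie at the left, with a median of -1.12, DNA replication genes (orange) around 0, and late neutrophil genes (green) at the right with smaller -log10 p at the same size of difference.

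Ube2c had the largest fall among called genes. It encodes the ubiquitin-conjugating enzyme with which the anaphase-promoting complex marks mitotic cyclins for destruction. It stood at 9.81, 9.02, 9.63 and 9.82 on CLP replicates 1 to 4, against 11.52, 11.72 and 11.55 on the LSK arrays. All 4 CLP arrays lay below all 3 LSK arrays. The difference was -2.03 (SE 0.21, adjusted p = 0.000158), which is 4.07-fold lower. In this bulk measurement fewer cells in mitosis and less transcript per cell cannot be told apart.

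Genes of the mitotic spindle were among those with the next largest falls. Aurka, the kinase that matures centrosomes and builds the spindle, stood at 7.18, 6.76, 6.48 and 7.36 in CLP, against 8.45, 8.67 and 8.76 in LSK. Nusap1, which bundles microtubules around the chromosomes, stood at 8.76, 8.85, 8.46 and 9.47 in CLP, against 10.58, 10.53 and 10.59 in LSK. Aspm, a protein of the spindle poles, stood at 8.53, 8.92, 8.77 and 8.43 in CLP, against 10.52, 10.09 and 10.31 in LSK. In each of these genes the CLP arrays were all lower, and for Aurka and Nusap1 the LSK arrays lay closer together than the CLP arrays. The differences were -1.68 (SE 0.23, adjusted p = 0.00134) for Aurka, -1.68 (SE 0.19, adjusted p = 0.000243) for Nusap1 and -1.65 (SE 0.17, adjusted p = 0.000158) for Aspm. The 4 other probe sets of Aspm were also called lower. The second probe set of Aurka was at -0.23 (adjusted p = 0.856) and that of Nusap1 at -0.81 (adjusted p = 0.213), and with the mean of its probe sets Aurka was at -0.95, under 2-fold.

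Promoters of these genes are shown because a pair of short motifs is known from genes expressed in G2 and M phase: the cell cycle homology region, TTTGAA on either strand, and the CCAAT box, CCAAT on either strand, which reads ATTGG on the other. The 4 called mitosis and spindle genes with the largest fall and a single promoter in the table are given 5′ to 3′ on the strand of the gene, from 250 bases before to 50 bases after the annotated start, from RefSeq on GRCm38.p6, with both motifs in capitals. Ube2c lies at chr2:164769679-164769978 on the plus strand, Aurka at chr2:172370521-172370820 on the minus strand, Nusap1 at chr2:119618048-119618347 on the plus strand and Aspm at chr1:139454523-139454822 on the plus strand.
Ube2c: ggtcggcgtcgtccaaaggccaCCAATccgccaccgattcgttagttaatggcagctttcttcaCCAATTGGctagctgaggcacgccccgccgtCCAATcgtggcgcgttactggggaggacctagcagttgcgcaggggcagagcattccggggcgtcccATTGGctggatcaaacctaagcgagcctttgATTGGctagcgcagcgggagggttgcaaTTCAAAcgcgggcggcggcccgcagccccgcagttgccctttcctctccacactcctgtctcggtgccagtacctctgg
Aurka: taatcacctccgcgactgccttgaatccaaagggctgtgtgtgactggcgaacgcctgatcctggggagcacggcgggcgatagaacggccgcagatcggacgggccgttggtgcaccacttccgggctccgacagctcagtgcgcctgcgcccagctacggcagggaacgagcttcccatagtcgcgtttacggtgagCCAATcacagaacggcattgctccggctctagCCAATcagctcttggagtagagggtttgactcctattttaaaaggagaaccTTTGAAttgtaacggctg
Nusap1: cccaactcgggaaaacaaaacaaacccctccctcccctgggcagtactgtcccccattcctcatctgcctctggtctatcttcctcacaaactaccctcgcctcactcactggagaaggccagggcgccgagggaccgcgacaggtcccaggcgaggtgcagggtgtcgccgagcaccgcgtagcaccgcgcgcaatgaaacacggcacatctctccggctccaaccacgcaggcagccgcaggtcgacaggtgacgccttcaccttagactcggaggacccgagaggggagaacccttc
Aspm: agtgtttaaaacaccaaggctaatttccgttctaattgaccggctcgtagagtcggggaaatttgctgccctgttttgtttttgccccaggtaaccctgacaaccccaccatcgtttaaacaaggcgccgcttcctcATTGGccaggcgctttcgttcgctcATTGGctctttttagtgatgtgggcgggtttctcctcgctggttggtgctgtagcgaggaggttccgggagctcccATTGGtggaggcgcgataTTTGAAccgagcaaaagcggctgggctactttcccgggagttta
The Ube2c window held 6 matches to CCAAT, of which 2 overlap each other, and 1 to TTTGAA, 29 bases before the start on the other strand. The Aurka window held 2 matches to CCAAT and 1 to TTTGAA, which began at base 33 of the transcript. The Aspm window held 3 and 1, and in Aspm TTTGAA began at base 7. The Nusap1 window held neither motif. Of the 53 genes called lower, 43 had a promoter in the table. TTTGAA was present in 30 of these 43 (69.8%), against 2263 of the 14452 tested genes with a promoter (15.7%), and CCAAT in 33 (76.7%), against 42% of those genes. Both motifs stood together in 27 (62.8%), against 6.2%. Among measured DNA replication genes with a promoter, 5 of 31 (16.1%) held TTTGAA and 18 (58.1%) held CCAAT. A match is a run of letters and no proof of a site, and these shares were not tested.

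**Figure D2:**
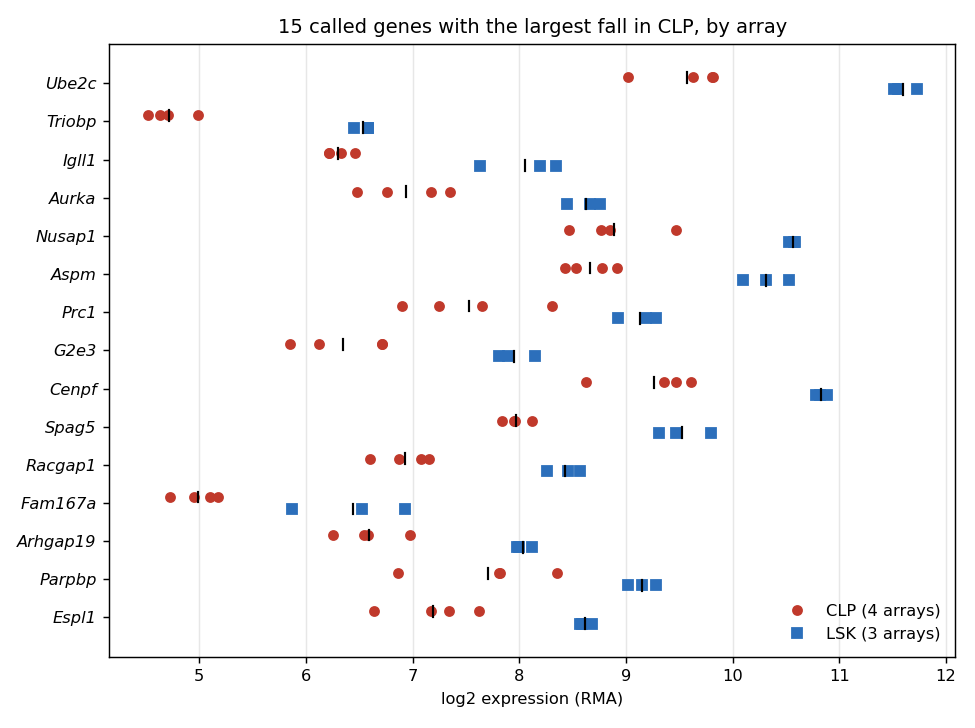
Log2 expression (x axis) of the 15 called genes with the largest fall, 1 row per gene; circles are the 4 CLP arrays, squares the 3 LSK arrays and black bars the group means. In every row all CLP circles lie left of all LSK squares, which the choice of these genes required.

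Of the 48 mitosis and spindle genes, 47 were measured, and Ccnb1 is not analysed here. In 44 of the 47 all CLP arrays lay below all LSK arrays, where 4.77% of all genes did, and 46 had a negative difference. At an adjusted p under 0.05 there were 27 lower members, 22 of them by at least 2-fold, and 0 higher. The median difference of the list was -1.12. The mean level of the list was 8.46, 8.39, 8.38 and 8.70 on CLP replicates 1 to 4, against 9.59, 9.57 and 9.63 on the LSK arrays, so every CLP array was lower than every LSK array. The other populations averaged 8.08 in HSC, 9.22 in ETP, 8.88 in adult ETP, 8.85 in DN3 and 9.89 in pro-B cells, which places CLP between HSC and the thymic populations and LSK between ETP and pro-B cells.

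The called members have roles along the whole of mitosis. Of the enzymes that start and time it, Aurkb, the kinase of the chromosomal passenger complex, was lower by a log2 difference of -1.21 (SE 0.20, adjusted p = 0.00516). Ccna2, the cyclin of S and G2 phase, was at -1.18 and Cdca3, a trigger of mitotic entry, at -1.28, both called. Of the motors and spindle proteins, Kif11, which pushes the spindle poles apart, was at -1.23 (SE 0.16, adjusted p = 0.000767), Tpx2, the activator of Aurora A, at -1.20 and Kif4 at -1.12. At the kinetochore the motor Cenpe stood at 9.16, 8.86, 9.25 and 9.95 in CLP, against 10.51, 10.63 and 10.72 in LSK. Its difference was -1.32 (SE 0.20, adjusted p = 0.00247), and the kinetochore proteins Cenpf (-1.56), Ndc80 (-1.05) and Knl1 (-1.04) were called as well. Of the genes of cytokinesis, Prc1, which crosslinks the central spindle, stood at 8.30, 7.25, 6.90 and 7.65 in CLP, against 8.93, 9.28 and 9.19 in LSK. The difference of Prc1 was -1.60 (SE 0.26, adjusted p = 0.00549). Its adjusted p was 0.0512 without LSK replicate 5 and 0.133 with only the 7 CLP and LSK arrays in the fit. Racgap1 of the centralspindlin complex (-1.5), Ect2, the exchange factor that starts the cleavage furrow (-1.28), Anln of the contractile ring (-1.06) and the kinesin Kif20a (-1.14) were also called lower. Top2a, the topoisomerase that untangles chromosomes, was at -1.0, just past 2-fold. The other probe sets of Top2a were at -0.30 and 0.18, and that of Anln at -0.09, all with overlapping arrays. Racgap1 was at -0.92 with the mean of its probe sets, under 2-fold, and it lost its call without LSK replicate 6 (adjusted p = 0.0536).

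Some members fell by less than 2-fold or did not pass. The passenger complex genes Birc5 (-0.90), Incenp (-0.87) and Cdca8 (-0.78), the kinesin Kif23 (-0.87) and the cohesin protector Sgo1 (-0.85) had adjusted p-values of 0.0201 to 0.0341. The mitotic kinase Cdk1 was at -1.18 (adjusted p = 0.0576) and Plk1 at -1.02 (adjusted p = 0.0937). Kif2c, a kinesin that depolymerises microtubules, stood at 6.96, 7.63, 6.90 and 8.11 in CLP, against 8.98, 9.11 and 9.42 in LSK. Its difference of -1.77 was the second largest in the list, but its SE was 0.51 and its adjusted p 0.284. Cdc25c, the phosphatase that activates Cdk1, was at -1.58 (adjusted p = 0.177) and Cep55, of abscission, at -1.49 (adjusted p = 0.0839). Mki67, the proliferation marker Ki-67, stood at 12.25, 12.13, 12.03 and 12.41 in CLP, against 12.67, 12.64 and 12.64 in LSK (-0.44, adjusted p = 0.156). In 3 members the groups overlapped: Pttg1, or securin, was at 0.09 (95% interval -0.53 to 0.71), Troap at -0.08 and Foxm1, a transcription factor of mitotic genes, at -0.33.

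No gene of DNA replication passed the test. By limma 0 of 37 measured members were called, and at an unadjusted p under 0.05 there were 3 lower and 0 higher, where 4.06% of all genes were lower and 2.97% higher. In the mitosis and spindle list 44 were lower by that count. The median of the replication list was -0.08 (-0.17 without CLP replicate 1), and the mean level was 9.30, 9.21, 9.39 and 9.33 on CLP replicates 1 to 4, against 9.44, 9.44 and 9.33 on the LSK arrays. Pcna, the sliding clamp of the polymerases, stood at 12.04, 12.03, 11.94 and 12.21 in CLP, against 12.02, 11.97 and 11.96 in LSK, with a 95% interval of the difference from -0.18 to 0.32. All CLP arrays lay above all LSK arrays for 4 members, where 5.25% of all genes did. These were the helicase subunits Mcm2 (0.29), Mcm3 (0.18) and Mcm6 (0.16) and the loader Cdc6 (0.31), with adjusted p-values of 0.737 to 0.915. All CLP arrays lay below for 2 members, Mcm10 (-0.70, adjusted p = 0.707) and the ribonucleotide reductase subunit Rrm1 (-0.34, adjusted p = 0.646).

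Set against one another on each array, the mean of the mitosis list minus that of the replication list was -0.85, -0.82, -1.0 and -0.64 on the CLP arrays, against 0.15, 0.13 and 0.29 on the LSK arrays. It ran from -0.61 to -0.47 in HSC, from -0.65 to -0.31 in DN3, from -0.45 to -0.26 in adult ETP, from -0.20 to -0.07 in ETP and from -0.13 to 0.20 in pro-B cells. Every CLP array was below every array of these populations, with 1 exception: the lowest DN3 array, at -0.65, lay below CLP replicate 4. The lists hold different genes, and these means are a description with no test.

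**Figure D3:**
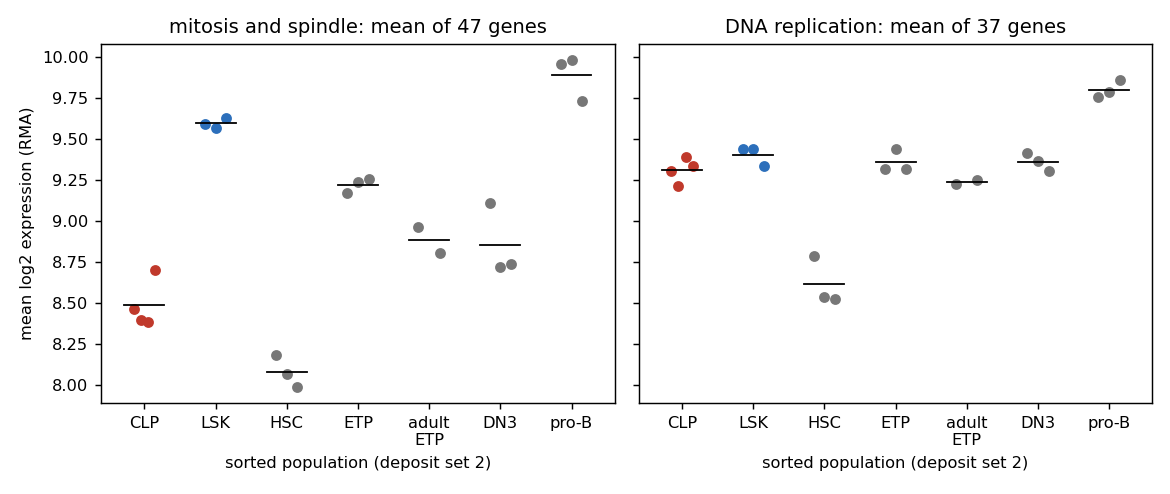
Mean log2 expression (y axis) of the mitosis and spindle list (left) and of the DNA replication list (right) on each array of the normalization set, by population (x axis); points are arrays and bars group means. CLP (8.38 to 8.70) and LSK (9.57 to 9.63) are apart in the left panel and overlap in the right panel (9.21 to 9.39 in CLP, 9.33 to 9.44 in LSK).

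In the list of G1 cyclins and inhibitors of cyclin-dependent kinases 0 of 19 members were called, and the median was -0.13. At an unadjusted p under 0.05, 3 were lower and 0 higher, where 4.06% and 2.97% of all genes were. Ccng2, a cyclin that slows the cycle, stood at 8.23, 8.82, 7.93 and 7.87 in CLP, against 9.31, 8.91 and 9.06 in LSK (-0.88, SE 0.21, adjusted p = 0.113). Without CLP replicate 2 it passed, at -1.08 with adjusted p = 0.0134. Cdk6, the partner of the D cyclins, was at -0.42 (adjusted p = 0.161), and Ccnd2 at 0.24 (adjusted p = 0.831). The inhibitor genes Cdkn1b (-0.66), Cdkn1a (-0.42) and Cdkn2c (-0.20) overlapped between the groups. In the list of Myc and ribosome biogenesis genes 0 of 20 members were called, 0 had an unadjusted p under 0.05, the median was -0.03, and Myc stood at 11.73, 11.58, 11.66 and 11.14 in CLP, against 11.34, 11.54 and 11.38 in LSK.

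Another 30 genes called lower belong to none of the lists, and they are named here after their values were seen. Spag5 of the spindle was at -1.56, Espl1, or separase, which cuts cohesin at anaphase, at -1.42, and Arhgap19 at -1.44. G2e3, a ubiquitin ligase named for its peak in G2 and M phase, was at -1.60, and Parpbp, which restrains recombination, at -1.44. G2e3 lost its call without CLP replicate 2 or 3 or any LSK array (adjusted p 0.0562 to 0.126), and Parpbp without LSK replicate 4 or 5. With only the 7 CLP and LSK arrays in the fit, Parpbp (adjusted p = 0.21) and Espl1 (adjusted p = 0.0598) lost their calls. The kinesins Kif18b (-1.26), Kif22 (-1.13) and Kif18a (-1.10), the kinetochore genes Spc25 (-1.18), Nsl1 (-1.18), Knstrn (-1.26) and Cenpn (-1.12), and Sgo2a (-1.31), Ncaph (-1.16), Nek2 (-1.11), Ckap5 (-1.09), Tacc3 (-1.05) and Gas2l3 (-1.07) were called. So were Kpna2 (-1.35), Gtse1 (-1.21), Pimreg (-1.20), Cdca2 (-1.15), Depdc1b (-1.32), Depdc1a (-1.04) and the histone variant gene H2ax (-1.21). Tubb4b, a beta tubulin, was at -1.36 (SE 0.14, adjusted p = 0.000158), but only 1 of its 5 other probe sets had the same sign, at -0.16.

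Triobp, Bfsp2, Fam167a and Pmch were called as well. Triobp, which binds actin, stood at 4.99, 4.71, 4.52 and 4.64 in CLP, against 6.59, 6.58 and 6.45 in LSK, so that CLP lay below and LSK above the median of the array. Its difference was -1.82 (SE 0.30, adjusted p = 0.00577). Triobp lost its call with both deposit sets in the fit (-1.31, adjusted p = 0.229), and with low values left out it was not tested. Bfsp2, a filament protein of the lens, stood at 10.02, 9.41, 9.12 and 8.93 in CLP, against 10.36, 10.37 and 10.47 in LSK, and it averaged 11.89 in pro-B cells and 7.09 in HSC. The difference of Bfsp2 was -1.03 (SE 0.20, adjusted p = 0.0212). Fam167a was at -1.45 (adjusted p = 0.0379), with LSK arrays spread from 5.87 to 6.93, and it lost its call when any CLP array or LSK replicate 4 or 5 was left out. Pmch, which encodes a neuropeptide precursor, was called at -1.19, and its gene overlaps Parpbp on the opposite strand, so the probe sets of these 2 genes may share signal, which was not tested.

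B lineage genes lay mostly lower in CLP, and 1 of 29 measured members was called. Igll1, which encodes a part of the surrogate light chain of the pre-B cell receptor, stood at 6.33, 6.22, 6.22 and 6.46 in CLP, against 8.35, 8.19 and 7.63 in LSK. The groups did not overlap, and HSC and ETP averaged 6.25 and 6.04 while pro-B cells averaged 12.54. Its difference was -1.75 (SE 0.21, adjusted p = 0.000318) by a probe set whose suffix marks probes that may also bind related transcripts. The other probe set of Igll1 was at 0.19 (adjusted p = 0.922), and with the mean of both Igll1 was at -0.78 (adjusted p = 0.0916).

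Of the 29 members, 25 had a negative difference, and 13 were lower and 0 higher at an unadjusted p under 0.05, where 4.06% and 2.97% of all genes were. All CLP arrays lay below all LSK arrays in 12 and above in 1 (Hs3st1, a heparan sulfate sulfotransferase), where 4.77% and 5.25% of all genes did, and the median was -0.54. The mean level of the list was 7.64, 7.58, 7.23 and 7.14 on CLP replicates 1 to 4, against 8.0, 7.88 and 7.88 in LSK, while HSC averaged 6.29 and pro-B cells 9.40. CLP replicates 1 and 2 thus lay above replicates 3 and 4, and all 4 below LSK. Vpreb1, the other part of the surrogate light chain, stood at 10.14, 10.59, 9.23 and 9.03 in CLP, against 11.29, 11.39 and 11.15 in LSK (-1.53, SE 0.48, adjusted p = 0.368). Pou2af1, the coactivator of octamer factors, stood at 8.56, 8.48, 7.35 and 7.59 in CLP, against 9.26, 9.32 and 9.48 in LSK (-1.36, adjusted p = 0.559).

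None of the transcription factors of B cell fate was called. Ebf1, which opens the B cell programme, stood at 8.89, 9.09, 8.98 and 8.89 in CLP, against 9.73, 9.13 and 9.65 in LSK (-0.54, SE 0.19, adjusted p = 0.506). Pax5, which fixes B cell identity, stood at 7.48, 8.51, 6.79 and 6.10 in CLP, against 8.92, 8.28 and 8.47 in LSK (-1.34, SE 0.37, adjusted p = 0.24). Pax5 overlapped through CLP replicate 2, and its level differed more among the CLP arrays than that of Ebf1. Foxo1, which drives the recombinase genes and Il7r, was at -0.78 (adjusted p = 0.192), with all CLP arrays lower. The adaptor gene Blnk stood at 8.33, 8.19, 6.79 and 6.58 in CLP, against 8.69, 8.40 and 8.38 in LSK, and the receptor gene Cd79a at 8.53, 9.0, 7.09 and 6.51 in CLP, against 8.73, 8.34 and 8.72 in LSK. In both, CLP replicates 1 and 2 were near the LSK level and replicates 3 and 4 below it. Ly6d, the surface marker that divides the CLP compartment into an early and a B-biased part, stood at 7.08, 7.32, 6.52 and 7.56 in CLP, against 7.76, 8.08 and 7.98 in LSK (-0.82, SE 0.22, adjusted p = 0.201). Mzb1 was at -0.75 (adjusted p = 0.064).

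Early lymphoid genes showed no called difference. Of 21 measured members 15 had a negative and 6 a positive difference, and the median was -0.11. At an unadjusted p under 0.05, 1 was lower and 1 higher, where 4.06% and 2.97% of all genes were. Dntt, the terminal transferase, stood at 12.87, 13.05, 12.45 and 12.54 in CLP, against 12.77, 12.87 and 12.86 in LSK, with a 95% interval of the difference from -0.54 to 0.33. The recombinase gene Rag1 stood at 11.76, 11.62, 11.16 and 10.91 in CLP, against 11.83, 11.52 and 11.90 in LSK (-0.39, adjusted p = 0.756). Lmo4, a LIM-only adaptor of transcription factors, stood at 7.88, 7.07, 7.36 and 6.85 in CLP, against 6.13, 5.44 and 6.17 in LSK, with no overlap. Its difference was 1.37 (SE 0.47), the largest of the list, and its adjusted p 0.48.

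No gene of the T lineage, Notch or homing lists was called. In the T lineage list of 18 measured members the median was 0.08, with 1 lower and 1 higher at an unadjusted p under 0.05, and Cd247, the zeta chain of the T cell receptor, came nearest at -0.51 (adjusted p = 0.336). In the list of Notch receptors and targets the median of 14 members was 0.03 and 0 had an unadjusted p under 0.05, with Notch1 at 10.98, 10.72, 11.09 and 10.50 in CLP, against 10.93, 10.59 and 10.55 in LSK. In the homing and adhesion list the median of 16 measured members was 0.01, with 2 lower and 0 higher at an unadjusted p under 0.05. By that count 4.06% of all genes were lower and 2.97% higher. Ccr9, a chemokine receptor of thymic homing, stood at 6.84, 7.41, 7.51 and 7.77 in CLP, against 7.39, 6.55 and 6.98 in LSK (0.41, 95% interval -0.03 to 0.85, adjusted p = 0.726). S1pr1, with which cells leave tissues, was at -0.67 (adjusted p = 0.614) and Gpr183, a receptor for oxysterols, at -0.65 (adjusted p = 0.686). The other probe set of Gpr183 had the opposite sign, at 0.46 (adjusted p = 0.764).

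**Figure D4:**
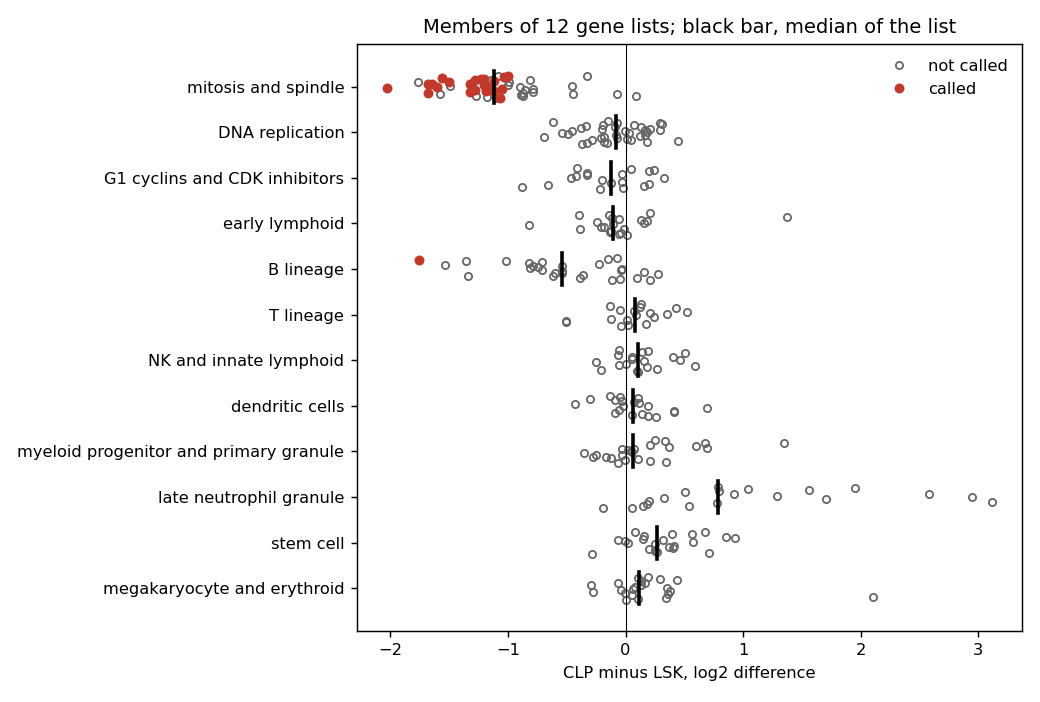
Log2 difference, CLP minus LSK (x axis), of each measured member of 12 lists (rows); filled circles are called genes and black bars list medians. The mitosis and spindle list and the B lineage list have the lowest medians (-1.12 and -0.54), and the late neutrophil list the highest (0.79) without a called member.

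The only gene called higher in CLP was Ahnak, a very large scaffold protein under the plasma membrane. It stood at 8.69, 8.12, 9.09 and 8.28 in CLP, against 7.56, 6.96 and 7.78 in LSK, where HSC averaged 10.87 and ETP 8.90. The groups did not overlap, and the difference was 1.11 (SE 0.24, adjusted p = 0.0462). Its 3 other probe sets were at 0.25, 0.21 and 0.00, and with the mean of its probe sets Ahnak was at 0.39 (adjusted p = 0.184). Leaving out CLP replicate 1 or 3 or any of the 3 LSK arrays took its adjusted p to between 0.0597 and 0.321. With both deposit sets in the fit Ahnak was at 0.53 (adjusted p = 0.656), and with only the 7 arrays its adjusted p was 0.319.

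Genes of the late neutrophil list were high on some CLP arrays, and none was called on all arrays. The late neutrophil list holds proteins of the later granules and the cytosol of maturing neutrophils, and its mean level was 7.20, 6.26, 5.61 and 5.28 on CLP replicates 1 to 4, against 4.81, 4.98 and 5.30 on the LSK arrays. CLP replicate 4 lay at the level of LSK replicate 6, and CLP replicate 1 above every other array. Of 20 measured members 19 had a positive difference, 10 were higher and 0 lower at an unadjusted p under 0.05, where 2.97% and 4.06% of all genes were. In 7 members all CLP arrays lay above all LSK arrays, where 5.25% of all genes did. The median was 0.79, with 0.38 without CLP replicate 1 and 1.93 with low values left out. S100a9, a calcium-binding protein abundant in neutrophils, stood at 11.76, 10.38, 9.22 and 6.88 in CLP, against 5.09, 5.55 and 8.68 in LSK (3.12, SE 1.04, adjusted p = 0.446). Stfa3, a protease inhibitor, stood at 8.99, 8.0, 6.50 and 4.91 in CLP, against 4.05, 4.16 and 4.26 in LSK (2.94, SE 0.79, adjusted p = 0.204). Stfa3 passed with array weights (adjusted p = 0.0274) and without CLP replicate 4 (3.68, adjusted p = 0.03), but not without CLP replicate 1 (2.31, adjusted p = 0.468). Ngp was at 1.70 (adjusted p = 0.599), and Mmp9, the gelatinase of neutrophils, at 1.56 (adjusted p = 0.225). Mmp9 passed with both deposit sets in the fit (1.38, adjusted p = 0.0259). The complement receptor gene C5ar1, which is not in the list, stood at 7.98, 6.08, 5.16 and 5.18 in CLP, against 4.73, 4.78 and 4.66 in LSK (1.38, adjusted p = 0.6). The other probe set of C5ar1 was at 0.10 (adjusted p = 0.925), with overlapping arrays. Without CLP replicate 1 Ngp was at 1.04, Mmp9 at 0.92 and C5ar1 at 0.75. The list averaged 6.30 in pro-B cells, 5.64 in HSC and 4.99 in ETP.

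None of the genes of the earlier, primary granules was called. Mpo, the granule peroxidase of myeloid progenitors, stood at 11.40, 11.41, 11.73 and 11.32 in CLP, against 11.42, 11.37 and 11.46 in LSK, and the elastase gene Elane at 4.28, 4.10, 4.15 and 4.07 in CLP, against 3.81, 4.07 and 4.5 in LSK. In the list of myeloid progenitor and primary granule genes 0 of 24 measured members were called, and the median was 0.06. At an unadjusted p under 0.05, 5 were higher and 0 lower, where 2.97% and 4.06% of all genes were. Csf1r, the receptor for macrophage colony stimulating factor, stood at 8.96, 8.63, 8.40 and 7.69 in CLP, against 7.96, 6.17 and 7.06 in LSK (1.35, SE 0.35, adjusted p = 0.18). Csf1r passed with array weights (1.58, adjusted p = 0.022) and without LSK replicate 4 (1.8, adjusted p = 0.0411). It was at 0.90 (adjusted p = 0.646) without LSK replicate 5 and at 0.97 (adjusted p = 0.639) without CLP replicates 1 and 2. The other probe sets of Csf1r were at 0.70 and 0.20. With the mean of its probe sets Csf1r was at 0.75 (adjusted p = 0.0604), under 2-fold. Irf8, a factor of monocytes, dendritic cells and B cells, was at 0.70 (adjusted p = 0.55).

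A pair of red cell genes was highest on CLP replicates 1 and 3. The globin gene Hbb-b2 stood at 10.96, 8.81, 9.83 and 8.16 in CLP, against 6.16, 6.36 and 8.14 in LSK, so that CLP replicate 4 and LSK replicate 6 were nearly equal (2.56, SE 0.62, adjusted p = 0.114). Hbb-b2 passed when both its probe sets were averaged (1.54, adjusted p = 0.0424), with array weights (2.52, adjusted p = 0.0419) and without CLP replicate 4 (2.98, adjusted p = 0.0437). It did not pass without CLP replicate 1 (2.05, adjusted p = 0.302) or with only the 7 arrays in the fit (adjusted p = 0.373). The second probe set of Hbb-b2 was at 0.52 (adjusted p = 0.752). Slc4a1, the anion exchanger of the red cell membrane, stood at 9.41, 6.24, 7.87 and 6.04 in CLP, against 4.81, 5.13 and 5.92 in LSK (2.10, SE 0.60, adjusted p = 0.273). The erythroid factors Klf1 (0.13) and Gata1 (0.10) stood at 5.47 or lower on all 7 arrays. In the list of megakaryocyte and erythroid genes 0 of 22 measured members were called (median 0.12). At an unadjusted p under 0.05, 2 were higher and 0 lower, where 2.97% and 4.06% of all genes were. The mean level of that list was 6.50, 6.07, 6.33 and 6.24 on CLP replicates 1 to 4, against 5.94, 6.13 and 6.16 in LSK, so the groups overlapped through CLP replicate 2. Dab2, an endocytic adaptor, stood at 7.75, 6.02, 6.96 and 6.36 in CLP, against 5.95, 5.05 and 5.13 in LSK (1.40, adjusted p = 0.312). It passed with array weights (1.61, adjusted p = 0.0315) but not without CLP replicate 1 (1.07, adjusted p = 0.6). The other probe sets of Dab2 were at 0.29, 0.01 and 0.39, and with the mean of its probe sets it was at 0.52 (adjusted p = 0.548).

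Without CLP replicates 1 and 2, the arrays with the highest mean of the late neutrophil list, 35 genes were called, 34 of them lower, 11 of them in the mitosis and spindle list, and 26 were among the 54 called on all arrays. CLP replicate 3, second highest for both red cell genes, stayed in that fit. The part of the neutrophil and red cell genes in the other differences was not tested.

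**Figure D5:**
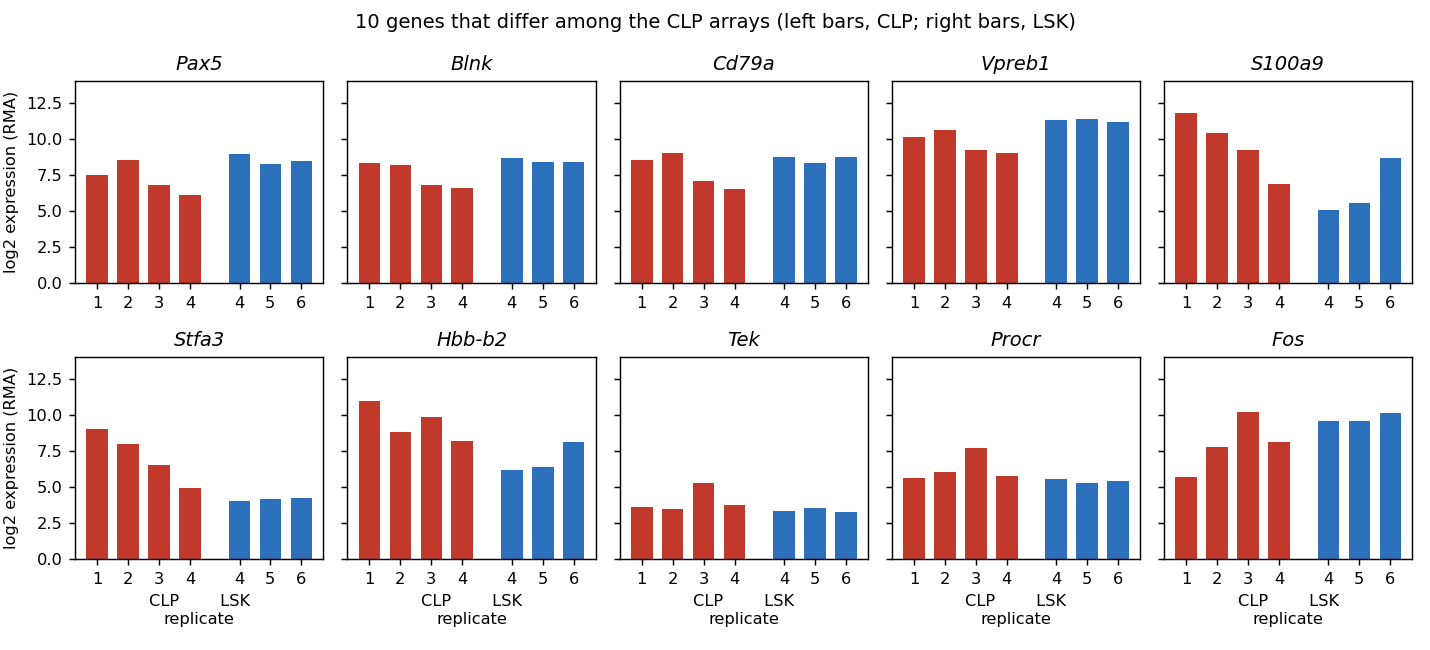
Log2 expression (y axis) of 10 genes on CLP replicates 1 to 4 (left bars of each panel) and LSK replicates 4 to 6 (right bars). Pax5, Blnk, Cd79a and Vpreb1 are higher on CLP replicates 1 and 2 than on 3 and 4, S100a9 and Stfa3 are highest on CLP replicate 1, and Tek, Procr and Fos on CLP replicate 3.

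The CLP arrays differed from one another in further genes, given here as a description with no test. The genes with the largest SD over the CLP arrays at a CLP mean of at least 6 included Acp5, a phosphatase of osteoclasts and macrophages, at 10.51, 6.30, 5.41 and 6.00 on replicates 1 to 4. They also included S100a9, S100a8, Stfa3 and Fos, an immediate early gene at 5.67, 7.76, 10.16 and 8.13. Ttll1, a tubulin-modifying enzyme, stood at 5.41, 8.89, 5.62 and 4.75, Osgepl1 at 6.06, 9.52, 5.46 and 6.40 and Lrrc19 at 7.82, 10.25, 10.60 and 7.24. A different replicate was highest in these genes: replicate 1 for Acp5, replicate 2 for Ttll1 and Osgepl1, and replicate 3 for Fos and Lrrc19. Each gene was read from its probe set of highest mean, and the other probe sets of Ttll1, Osgepl1 and Lrrc19 did not repeat this pattern. In CLP those of Ttll1 stayed between 4.38 and 4.91 and that of Lrrc19 between 3.05 and 3.30. In another probe set of Osgepl1 replicate 2 was the lowest CLP array, at 4.99.

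Stem cell genes lay slightly higher in CLP, with 20 of 23 measured members positive, 0 called and a median of 0.27. At an unadjusted p under 0.05 there were 4 higher and 0 lower, where 2.97% and 4.06% of all genes were. Of all 18193 genes, 10219 had a positive difference. The macrophage list (13 of 15 positive) and the stroma and endothelium list (12 of 15) leaned the same way. The mean level of the stem cell list was 6.57, 6.59, 7.14 and 6.66 on CLP replicates 1 to 4, against 6.41, 6.41 and 6.42 in LSK. Both groups lay far below the HSC mean of 9.11. CLP replicate 3 stood out. Tek, the angiopoietin receptor, stood at 3.65, 3.50, 5.26 and 3.74 in CLP, against 3.32, 3.54 and 3.24 in LSK, and averaged 10.12 in HSC. Procr, the protein C receptor of stem cells, stood at 5.61, 6.04, 7.73 and 5.73 in CLP, against 5.56, 5.29 and 5.42 in LSK. Mecom stood at 5.2, 4.54, 6.20 and 4.92 in CLP, against 4.67, 4.47 and 4.36 in LSK. The member nearest to a call was Fgd5, at 4.20, 4.38, 5.49 and 5.22 in CLP, against 4.05, 3.8 and 3.82 in LSK (0.93, SE 0.29, adjusted p = 0.341), and it passed without CLP replicates 1 and 2 (1.46, adjusted p = 0.0334). Without CLP replicate 3 the median of the list was 0.22.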

How the data were processed

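RNA of sorted progenitors was measured on one-colour arrays. The deposited table holds log2 values made by the authors with RMA, per the submitters' processing notes; no version or log base is given in the sources used here, and log2 was taken from the range of the values. Probe sets naming several genes (932), none (9160) or a control (64) were left out. limma 3.58.1 in R 4.3.3 was fitted to all 21 arrays normalized together, 1 mean per population, with 14 residual degrees of freedom, and p-values were adjusted by Benjamini-Hochberg over 34945 probe sets. A gene was read from its probe set of highest mean. Tables and plots used Python 3.11.15, numpy 2.4.6, pandas 2.3.3 and matplotlib 3.10.9. Arrays give no read depth, so their number limits the precision. The fit was also tested on simulated data, and no result of that run is given here. Named genes were the 15 largest falls and rises among called genes, up to 3 per list, the gate genes, and the 8 most variable over CLP arrays and 8 largest unadjusted rises with separate arrays; others named were chosen after their values were seen. The members and lists were chosen with earlier results of these data known. The alternatives changed the arrays fitted, the scaling, the probe set, the filter, the threshold, the weights, the variance prior and the replicates.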

Additional observations from a re-analysis of the deposited data

Results flagged for a closer look

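In 4 of the 64 named genes and 21 list means examined, 1 of the 4 CLP arrays stood apart from the other 3 by more than Dixon's limit for a group of 4, which chance passes in about 5% of groups. Flt3 stood at 10.54 on CLP replicate 4, with the others from 11.22 to 11.28. The mean of the homing and adhesion list was 7.40 on the same array, with the others from 7.59 to 7.60. Mmp9 stood at 8.69 on CLP replicate 1, with the others from 5.88 to 6.29. The mean of the stem cell list was 7.14 on CLP replicate 3, with the others from 6.57 to 6.66.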

How the results depend on the processing

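The main count was 54 genes, 53 lower and 1 higher, with 22 mitosis and spindle members. No paired analysis was possible because the CLP titles carry the numbers 1 to 3 and the LSK titles 4 to 6, so the groups share no replicate number. Leaving out 1 array at a time gave 35 to 60 genes called, 34 to 56 lower, 0 to 4 higher and 15 to 22 mitosis members, with the fewest calls without LSK replicate 4 (35, of which 33 were among the 54). Without CLP replicates 1 and 2, an alternative added after seeing the data, 35 were called, 34 lower, with 11 mitosis members. With only the 7 arrays in the fit 36 were called, 0 higher, with 12 mitosis members. limma's treat against 1.5-fold left 1 called gene, 1 lower and 0 higher, with 1 mitosis member. The genes called higher were 2 with only the highest-mean probe sets, 2 with low values left out and 5 with array weights. The median of the mitosis list stayed between -1.18 and -1.03. With low values left out the mean distance was 0.489 between CLP arrays and 0.465 from CLP to LSK arrays; the LSK arrays lay 0.291 to 0.356 apart when 1 was left out.

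Of the values of named genes under the alternatives, 1180 kept their direction and side of the threshold, 55 lost a call, 12 gained one and 16 turned in sign; none of the 16 was called, and the cause was not tested. Kit was at -0.17 with both deposit sets, -0.0029 with centred arrays, -0.13 with the mean of probe sets, -0.01 with array weights, and from -0.11 to 0.17 with 1 array left out. Flt3 was at 0.0026 with array weights and from -0.12 to 0.12 with 1 array left out, and Il7r at 0.11 with both sets. Acp5 ran from -0.65 to 1.04 and Osgepl1 from -0.09 to 1.44 with 1 array left out, and they were at -0.85 and -0.13 without CLP replicates 1 and 2. With the most variable probe set Nhp2 was at 0.01 and Vim at -0.05. The number of arrays, 4 and 3, limits what could be called.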

Other observations

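Immediate early genes differed among the CLP arrays. Fos, a subunit of AP-1, stood at 5.67, 7.76, 10.16 and 8.13 on CLP replicates 1 to 4, against 9.55, 9.57 and 10.09 in LSK (-1.81, SE 0.82, adjusted p = 0.681 by limma). Fosb stood at 4.53, 4.42, 7.95 and 4.80 in CLP, against 6.71, 6.79 and 8.0 in LSK. CLP replicate 3 reached the LSK level for both genes and the other CLP arrays lay below it. In the list of immediate early and heat shock genes 0 of 22 members were called, and the median was -0.17. At an unadjusted p under 0.05, 2 were lower and 0 higher, where 4.06% and 2.97% of all genes were.

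Interferon response genes had a median of 0.08, with 0 of 14 measured members called. At an unadjusted p under 0.05, 2 were higher, where 2.97% of all genes were. Rsad2, an antiviral enzyme, stood at 7.39, 7.07, 7.62 and 7.11 in CLP, against 6.35, 6.88 and 6.45 in LSK, without overlap (0.74, SE 0.21, adjusted p = 0.281). The list of stroma and endothelium had a median of 0.19 and 0 of 15 members called. Its member Sparc, a matrix protein, stood at 7.67, 6.31, 8.28 and 5.61 in CLP, against 5.81, 6.13 and 6.10 in LSK, high on CLP replicates 1 and 3. The lists of class II genes (median 0.00), macrophage genes (0.10), dendritic cell genes (0.06) and NK and innate lymphoid genes (0.10) also held 0 called members.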
